A study of Mus musculus with 20 samples.

Results

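The genes described are the 10 that encode the V(D)J recombination machinery: Rag1 and Rag2 (the recombinase), Dntt (terminal deoxynucleotidyl transferase, TdT), and the end-joining genes Xrcc6, Xrcc5, Prkdc, Dclre1c, Xrcc4, Lig4 and Nhej1. They were picked by gene symbol out of the 23284 genes of the count table, and each had 1 entry. All 10 passed the filter on low counts in every fit. The data were RNA sequencing of 20 libraries of DN3 thymocytes of C57BL/6 mice, in 3 pairs of a perturbed and a control group. In DeltaMxCre the mice were MxCreZmiz1f/f, and in MxCre they carried MxCre alone (3 mice and 3 libraries each). Both groups received 5 injections of pI-pC and were sorted 8 weeks later. In DeltaTamCre the mice were Rosa26CreERT2Zmiz1f/f, and in TamCre they carried Rosa26CreERT2 alone (4 mice and 4 libraries each), with cells sorted 43 to 44 h after tamoxifen in both. AntiNRR mice received an anti-NRR Notch1 antibody, which blocks Notch1 by its negative regulatory region, and IgG mice the isotype control, with sorting after 24 h (3 libraries each). The labels give no genotype and no number of mice for the antibody groups, so their p-values measure the spread between samples, which may be technical. Controls of both Zmiz1 models thus carried the same Cre and received the same inducer as the deleted mice. Mx1-driven Cre is induced by interferon and Rosa26CreERT2 is widely expressed, so neither limits deletion to thymocytes.

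V(D)J recombination assembles antigen receptor genes in developing lymphocytes. The RAG1 and RAG2 proteins bind recombination signal sequences and cut the DNA beside them, which leaves hairpin coding ends. The Ku heterodimer (XRCC6 and XRCC5) binds the broken ends and recruits DNA-PKcs (PRKDC), Artemis (DCLRE1C) opens the hairpins, TdT adds untemplated bases, and DNA ligase IV (LIG4) with XRCC4 and XLF (NHEJ1) seals the joint. DN3 is the stage at which T cell receptor beta genes are rearranged. RAG and TdT are made in lymphoid precursors, whereas the end-joining proteins repair breaks in most cell types.

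The upstream sequences of Rag1, Dntt and Xrcc5 are shown because each of these genes passed a test below, and that of Rag2 because its protein works with RAG1. Each is the 250 bases before the start used in RefSeq's promoter table (GRCm38.p6), read in the direction of transcription. For Xrcc5 that start is not the gene's outermost one, and the window reaches 4 bases into the gene's span. In all, 9 of the 10 genes had an entry in that table. Capitals mark 4 motifs searched on both strands. They are the E-box letters CANNTG, bound by E proteins such as those of Tcf3 and Tcf12, the core GATA of GATA factors, the core TGTGGT of RUNX factors, and the core TGGGAA of RBPJ, the DNA-binding partner of Notch.
Rag1 (chr2:101649533-101649782, minus strand): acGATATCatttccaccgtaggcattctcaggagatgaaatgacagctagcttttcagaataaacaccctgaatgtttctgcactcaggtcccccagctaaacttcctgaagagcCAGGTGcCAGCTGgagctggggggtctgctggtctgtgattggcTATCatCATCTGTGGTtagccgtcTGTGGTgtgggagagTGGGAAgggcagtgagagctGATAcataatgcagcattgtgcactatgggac
Rag2 (chr2:101624462-101624711, plus strand): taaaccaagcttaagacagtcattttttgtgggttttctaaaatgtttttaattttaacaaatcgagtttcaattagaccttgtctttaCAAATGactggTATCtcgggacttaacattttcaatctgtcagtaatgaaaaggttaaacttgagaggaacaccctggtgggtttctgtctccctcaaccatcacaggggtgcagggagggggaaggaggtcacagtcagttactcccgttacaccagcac
Dntt (chr19:41029025-41029274, plus strand): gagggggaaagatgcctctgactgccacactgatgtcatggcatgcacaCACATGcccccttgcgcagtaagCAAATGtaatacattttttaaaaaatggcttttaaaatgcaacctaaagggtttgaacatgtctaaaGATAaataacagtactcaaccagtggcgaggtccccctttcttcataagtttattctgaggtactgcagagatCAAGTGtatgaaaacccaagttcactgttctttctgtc
Xrcc5 (chr1:72307171-72307420, plus strand): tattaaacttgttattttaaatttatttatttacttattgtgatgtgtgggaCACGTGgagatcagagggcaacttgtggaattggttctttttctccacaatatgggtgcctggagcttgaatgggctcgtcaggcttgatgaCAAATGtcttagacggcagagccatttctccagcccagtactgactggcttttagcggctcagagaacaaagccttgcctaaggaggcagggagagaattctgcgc

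The Rag1 window held 3 E-boxes, 4 GATA matches, 2 TGTGGT matches and 1 TGGGAA match. The pair of GATA matches at its 5' end lie on opposite strands and overlap within GATATC, and 1 E-box shares its last bases with a TGTGGT match. The Rag2 window held 1 E-box and 1 GATA match, the Dntt window 3 E-boxes and 1 GATA match, and the Xrcc5 window 2 E-boxes. Over the 32536 RefSeq windows of this length, 66.2% held an E-box, 53.4% GATA, 14% TGTGGT and 21.6% TGGGAA, so single matches of the first pair are common. These matches describe the letters only.

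MxCre, DeltaMxCre, IgG and AntiNRR libraries were made with a SMARTer kit from 50 ng of RNA and hold 11695668 to 19133149 counts each. TamCre and DeltaTamCre libraries were made with a TruSeq kit from 100 ng and hold 52615332 to 101425251 counts each, and therefore the kit cannot be told apart from the model. Zmiz1 itself fell in DeltaMxCre (log2 fold change −1.42 ± 0.11 SE, adjusted p = 1.15e-08) and in DeltaTamCre (−0.65 ± 0.10, adjusted p = 0.0405). No gene was called lower in DeltaTamCre with a replicate block, or without DeltaTamCre 4 or any 1 of the 4 TamCre libraries, so the Zmiz1 call was lost there. The sort gate in the labels reads CD44-positive and CD25-negative, the reverse of the textbook DN3 phenotype, while Il2ra (CD25) lay at 543 to 5886 CPM (read counts scaled to a common library size) and Cd44 at 0.551 to 7.23 CPM. Of 11 DN3 markers, such as Ptcra and Il2ra, 8 fell and 1 rose in AntiNRR, beside 4.06% of all genes called. Their summed level was 4640 to 5322 CPM in AntiNRR against 9092 to 9142 CPM in IgG. In DeltaMxCre it was 9582 to 11176 CPM against 7968 to 9370 CPM in MxCre, with Cd3d lower (−0.50 ± 0.11, adjusted p = 0.00889). There 6 of the 11 had an unadjusted p under 0.05, beside 16.5% of all genes. Il2ra moved most in both sums, with means of 3415 CPM in MxCre, 5080 in DeltaMxCre (not called), 3544 in IgG and 656.4 in AntiNRR. In DeltaMxCre, Cd3e, Cd3g, Cd3d, Notch3 and Lck had negative log2 fold changes, and Il2ra, Ptcra, Dtx1, Hes1, Thy1 and Cd2 positive ones. The part of these sums in the results below was not tested.

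Levels can be compared between genes only per transcript length. In the authors' deposited table of group values in FPKM (fragments scaled by transcript length and library size), Dntt was the most abundant of the 10 transcripts in all 6 groups, at 1176 FPKM in TamCre to 2333 FPKM in AntiNRR. In the same deposited table by the authors, Rag1 stood second in the 4 SMARTer groups (307.2 to 753.1 FPKM) and Xrcc6 next (175.0 to 231.7 FPKM). In the TruSeq groups the order of that pair in the authors' deposited table was the reverse, with Xrcc6 at 282.4 and 268.7 FPKM and Rag1 at 91.2 and 96.3 FPKM. The Rag1 value of the authors' deposited table was thus 5.80 times as high in MxCre as in TamCre, whereas that of Rag2 was 1.40 times and that of Dntt 1.35 times as high. Rag2, Xrcc5 and Lig4 lay at 16.9 to 65.2 FPKM in the authors' deposited table, and their order changed between groups, with Xrcc5 below Xrcc4 and Dclre1c in AntiNRR. Xrcc4, Dclre1c and Prkdc lay at 7.23 to 36.0 FPKM in the authors' deposited table. Nhej1 was the lowest there in 5 of the 6 groups (3.56 to 8.65 FPKM), with Prkdc lowest in TamCre. Per length, Rag2 was thus below Rag1 and Xrcc5 below Xrcc6 in every group of the authors' deposited table, although the proteins of each pair work together. The authors' deposited table gives these group values without an error.

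**Figure D1:**
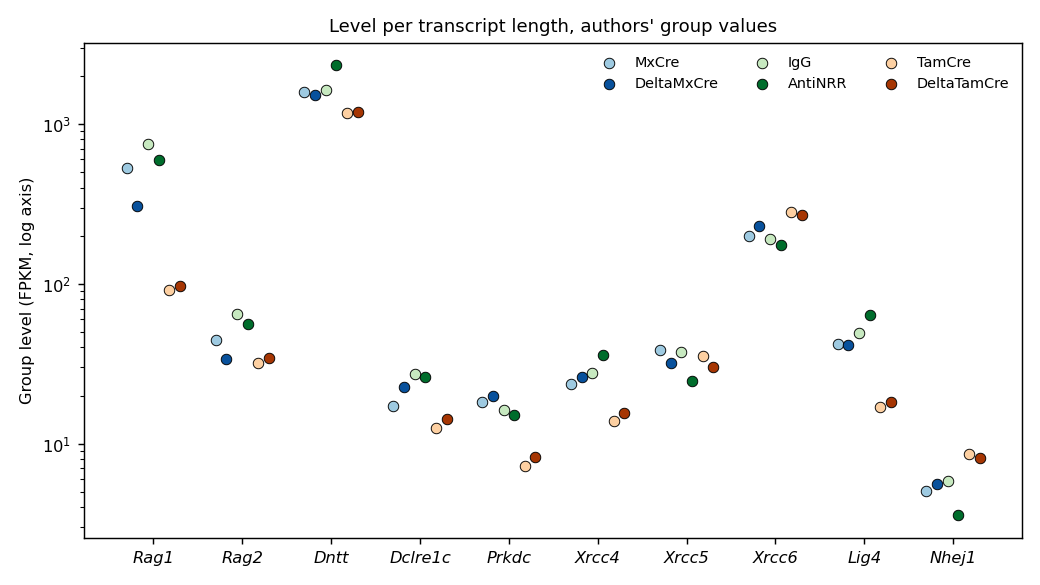
Group level per transcript length (FPKM on a log axis) of the 10 genes, 1 point per group, from the authors' deposited table. Dntt lies at 1176 to 2333 FPKM in every group, Rag1 at 307.2 to 753.1 in the SMARTer groups and 91.2 and 96.3 in the TruSeq groups, and Nhej1 at or below 8.65.

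Below, CPM are read counts normalised among the libraries of 1 kit, given as mean ± SD over libraries. Changes are log2 fold changes with their SE, tested by the quasi-likelihood method of edgeR, with p adjusted over all genes tested (Benjamini-Hochberg). "Rose" and "fell" mark an adjusted p under 0.05. Transcripts were measured in bulk, so fewer cells of a type and less RNA per cell cannot be told apart.

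The first comparison asked how the machinery differed 8 weeks after Zmiz1 deletion with MxCre. Of the 3 genes for the recombinase and TdT, Rag1 fell and Rag2 and Dntt did not pass, and none of the 7 end-joining genes passed. One of 10 genes was thus called, where the background over all 13557 genes tested was 2.94% called. DESeq2 also called Rag1 alone (background 5.1%), and Rag1 and Rag2 had an unadjusted p under 0.05 (background 16.5%), with 0 of the 7 end-joining genes by either measure. The median log2 fold change was −0.40 over the recombinase and TdT genes and 0.10 over the end-joining genes, beside −0.03 over all genes tested.

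Rag1 (chromosome 2, 101638252 to 101649532, mm10), whose protein holds the catalytic site, was at 3180, 4039 and 3321 CPM in MxCre and at 1861, 2010 and 2251 CPM in DeltaMxCre. Every DeltaMxCre library lay below every MxCre library. The mean fell from 3513 ± 461 to 2041 ± 197 CPM, to 0.581 of the control (−0.78 ± 0.11, adjusted p = 0.000193, n = 3 and 3), which ranked Rag1 15th by p among all genes. The call held in 13 of 13 alternative settings, with log2 fold changes from −0.86 to −0.67. The authors' deposited table gives a fold change of 0.581 with q = 0.00251.

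Rag2 (chromosome 2, 101624712 to 101632528), the regulatory partner of RAG1, was at 144.8, 141 and 102.9 CPM in MxCre and at 90.8, 103.6 and 99.7 CPM in DeltaMxCre. MxCre 3 lay among the DeltaMxCre values and the other two above them. The difference did not pass (−0.40 ± 0.14, adjusted p = 0.124), and without MxCre 3 it did (−0.53, adjusted p = 0.0197). MxCre 3 also had the highest summed level of 20 cell cycle genes in these groups, 8204 CPM against 4429 and 3719 CPM in MxCre 1 and 2 and 4057 to 5283 CPM in DeltaMxCre. The part of that sum in the Rag2 result was not tested.

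Dntt (chromosome 19, 41029275 to 41059525) was at 3604, 3423 and 2540 CPM in MxCre and at 2933, 2855 and 3296 CPM in DeltaMxCre. The 2 sets of values overlapped fully, with MxCre 3 the lowest of the 6 libraries. The difference was −0.07 ± 0.12 (adjusted p = 0.842). Within each library Rag1 counts were 0.882 to 1.31 times those of Dntt in MxCre and 0.635 to 0.704 times in DeltaMxCre, a ratio that depends on the lengths of both transcripts but is comparable between libraries of 1 kit.

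Among the end-joining genes, Xrcc5 (the larger Ku subunit) was at 87.0, 94.3 and 89.2 CPM in MxCre and at 76.4, 58.6 and 84.9 CPM in DeltaMxCre. All 3 DeltaMxCre values were lower, without passing the test (−0.30 ± 0.16, adjusted p = 0.363). Xrcc6 (the smaller Ku subunit) was at 442.9, 399.6 and 400.9 CPM in MxCre and at 467.5, 430.2 and 525.7 CPM in DeltaMxCre, with overlap (0.20 ± 0.10, adjusted p = 0.365). The ratio of Xrcc6 to Xrcc5 counts was 4.24 to 5.09 in MxCre and 6.12 to 7.34 in DeltaMxCre, with no overlap. In the TruSeq groups it overlapped, at 6.49 to 7.90 in TamCre and 7.53 to 8.95 in DeltaTamCre. The count ratios between genes were not tested, and no background over other pairs of genes was taken for them. Lig4, which encodes the ligase of this pathway, was level at 149.3 ± 14.99 and 148.9 ± 7.17 CPM. Xrcc4, the scaffold of that ligase, was at 29.0 ± 3.28 and 31.4 ± 2.95 CPM. Prkdc, the end-binding kinase, was at 212.2 ± 50.5 and 225.1 ± 36.1 CPM, and Dclre1c, the hairpin nuclease, at 60.0 ± 16.8 and 78.7 ± 21.6 CPM. Nhej1 lay at 3.49 to 5.07 CPM in these 6 libraries, which left an SE of 0.59 on its log2 fold change of 0.10. For 2 of the 10 genes (Rag1 and Xrcc5) no library of one group reached the other, beside 20.9% of all genes tested.

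**Figure D2:**
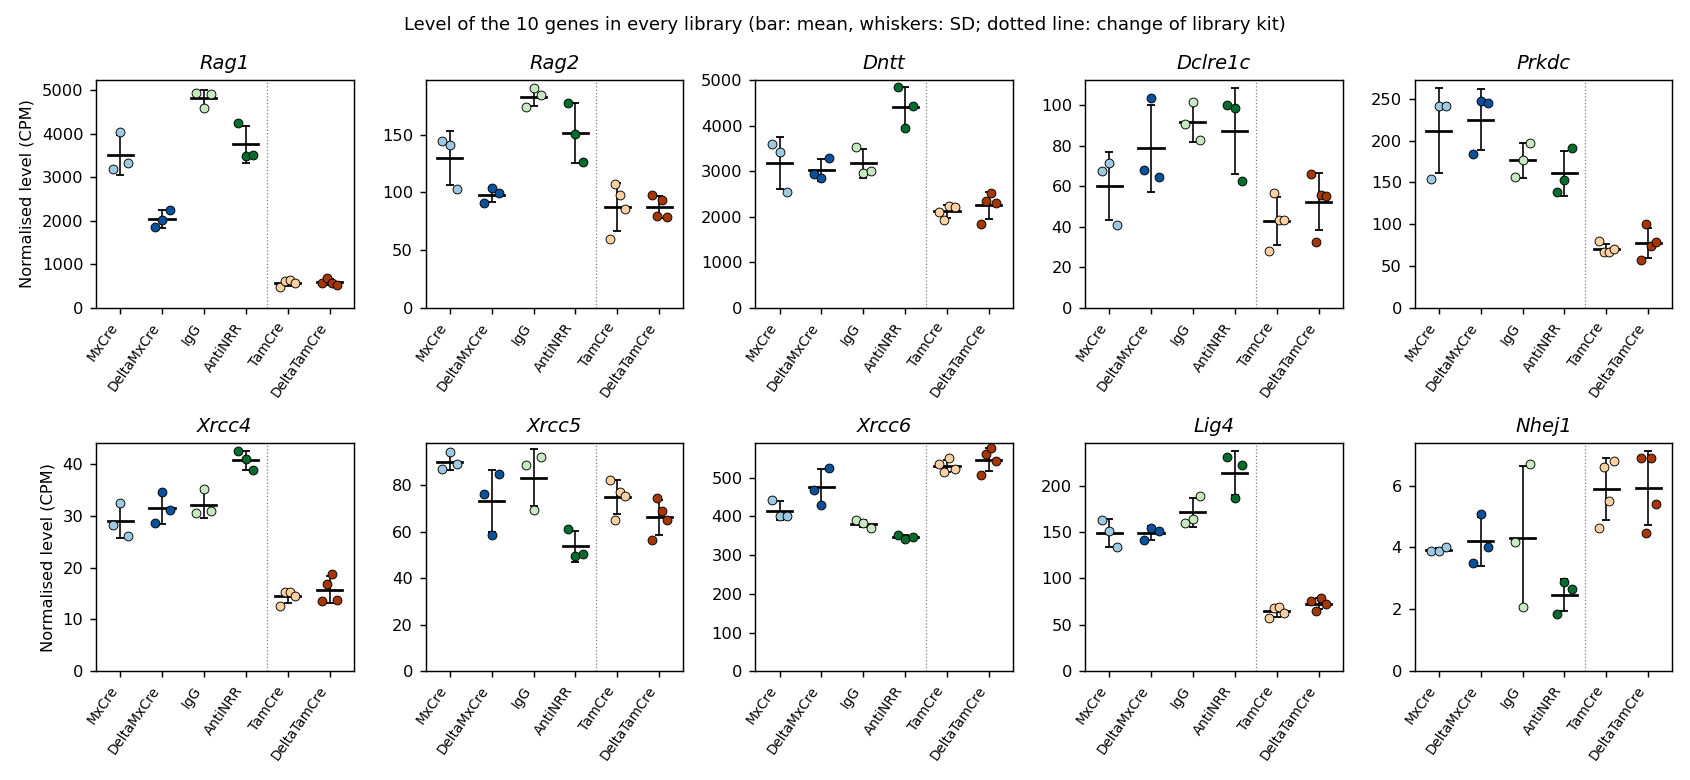
Normalised level (CPM, linear axes from 0) of each gene in every library, 1 point per library, with the group mean (bar) and SD (whiskers); the dotted line separates the SMARTer from the TruSeq libraries. Rag1 is lowest among SMARTer groups in DeltaMxCre (1861 to 2251 CPM), and Dntt is highest in AntiNRR (3946 to 4855 CPM).

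The second comparison asked how the same genes differed 24 h after Notch1 was blocked. Dntt rose and Xrcc5 fell in AntiNRR, and the other 8 genes did not pass, so 2 of 10 were called beside 4.06% of the 13557 genes tested. At an unadjusted p under 0.05 there were 4 (Rag1, Dntt, Xrcc5 and Lig4; background 16.3%), and DESeq2 called Rag1, Dntt and Xrcc5 (background 6.09%). The median log2 fold change was −0.27 over the recombinase and TdT genes and −0.13 over the end-joining genes, beside −0.02 over all genes tested.

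Dntt was at 3542, 2973 and 3019 CPM in IgG and at 4855, 3946 and 4429 CPM in AntiNRR. Every AntiNRR library lay above every IgG library. The mean rose from 3178 ± 316 to 4410 ± 455 CPM (0.47 ± 0.12, adjusted p = 0.0235, n = 3 and 3). The call was lost without AntiNRR 1 (adjusted p = 0.131), AntiNRR 3 (0.0648), IgG 2 (0.139) or IgG 3 (0.127), with log2 fold changes from 0.40 to 0.56 over the 13 alternatives. The authors' deposited table gives a fold change of 1.43 with q = 0.00143.

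Xrcc5 (chromosome 1, 72307417 to 72394953) was at 88.8, 69.2 and 92.0 CPM in IgG and at 61.1, 49.4 and 50.5 CPM in AntiNRR. The groups did not overlap, although IgG 2 lay nearer to AntiNRR 1 than to the other IgG libraries. The mean fell from 83.3 ± 12.4 to 53.7 ± 6.47 CPM (−0.63 ± 0.16, adjusted p = 0.0207). The call was lost without AntiNRR 2 (0.0928), AntiNRR 3 (0.0731), IgG 1 (0.0947) or IgG 3 (0.125), with log2 fold changes from −0.75 to −0.56. Xrcc6, the other Ku subunit, was at 390, 381.8 and 370.9 CPM in IgG and at 350.9, 341 and 347.7 CPM in AntiNRR (−0.14 ± 0.11, adjusted p = 0.59). Its groups did not overlap either, but the difference was small. The ratio of Xrcc6 to Xrcc5 counts was 4.03 to 5.52 in IgG and 5.74 to 6.91 in AntiNRR.

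Rag1 was at 4943, 4587 and 4913 CPM in IgG and at 4248, 3498 and 3511 CPM in AntiNRR. All AntiNRR values lay below all IgG values. The difference did not pass (−0.36 ± 0.11, adjusted p = 0.0737), but did in 5 of 13 alternatives: with DESeq2 (0.0325), with no filter (0.0417), with the compared groups alone (0.0145), with a replicate block (0.037) and without AntiNRR 1 (0.0449). Rag2 was at 173.9, 190 and 184.4 CPM in IgG and at 177.6, 150.3 and 126.3 CPM in AntiNRR, where AntiNRR 1 lay within the IgG range (−0.27 ± 0.14, adjusted p = 0.342). Rag1 counts were 1.40 to 1.63 times those of Dntt in IgG and 0.793 to 0.886 times in AntiNRR, with no overlap.

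Lig4 was at 160.3, 164.4 and 188.8 CPM in IgG and at 230.9, 186.7 and 222.7 CPM in AntiNRR. AntiNRR 2 lay just under the highest IgG library. The difference did not pass (0.32 ± 0.12, adjusted p = 0.164), whereas the authors' deposited table gives a fold change of 1.30 with q = 0.0358. Xrcc4, whose protein binds the ligase, was at 30.4, 35.1 and 30.9 CPM in IgG and at 42.4, 40.9 and 38.8 CPM in AntiNRR, without overlap (0.34 ± 0.19, adjusted p = 0.406). Prkdc was at 176.6 ± 20.7 and 160.9 ± 27.0 CPM and Dclre1c at 91.6 ± 9.61 and 87.2 ± 21.3 CPM in IgG and AntiNRR. Nhej1 was at 4.32 ± 2.31 and 2.46 ± 0.532 CPM (−0.81 ± 0.60, adjusted p = 0.569). In all, 5 of the 10 genes did not overlap between IgG and AntiNRR (Rag1, Dntt, Xrcc4, Xrcc5 and Xrcc6), beside 21.6% of all genes tested.

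The last of the 3 pairs addressed the early effect of Zmiz1 deletion, 43 to 44 h after tamoxifen. None of the 10 genes rose or fell in DeltaTamCre by edgeR, none had an unadjusted p under 0.05 and none was called by DESeq2. The backgrounds over 13460 genes were 0.0892% (12 genes), 16% and 4.05% in that order. Rag1 was at 479.5, 610.6, 637.7 and 564.5 CPM in TamCre and at 570.5, 681, 583.2 and 516.7 CPM in DeltaTamCre, fully overlapping (0.04 ± 0.11, adjusted p = 0.897). Rag2 was at 59.3, 107.6, 97.4 and 85.4 CPM in TamCre and at 97.5, 79.7, 93.8 and 78.3 CPM in DeltaTamCre, with TamCre 1 the lowest (0.00 ± 0.16, adjusted p = 0.997). Dntt was at 2102, 1937, 2248 and 2208 CPM in TamCre and at 1844, 2342, 2528 and 2308 CPM in DeltaTamCre (0.09 ± 0.10, adjusted p = 0.697). Dclre1c had the largest coefficient of variation of the 10 genes within both groups (27.4% and 26.9%), with 28.1 to 56.8 CPM in TamCre and 32.6 to 65.9 CPM in DeltaTamCre (0.29 ± 0.25, adjusted p = 0.607). Xrcc5 was at 74.9 ± 7.27 and 66.2 ± 7.55 CPM (−0.18 ± 0.10, adjusted p = 0.395) and Lig4 at 64.4 ± 5.43 and 72.9 ± 5.91 CPM (0.18 ± 0.08, adjusted p = 0.319). Prkdc, Xrcc4, Xrcc6 and Nhej1 had log2 fold changes from 0.01 to 0.13. The libraries overlapped for all 10 genes, where 10.6% of all genes did not overlap.

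**Figure D3:**
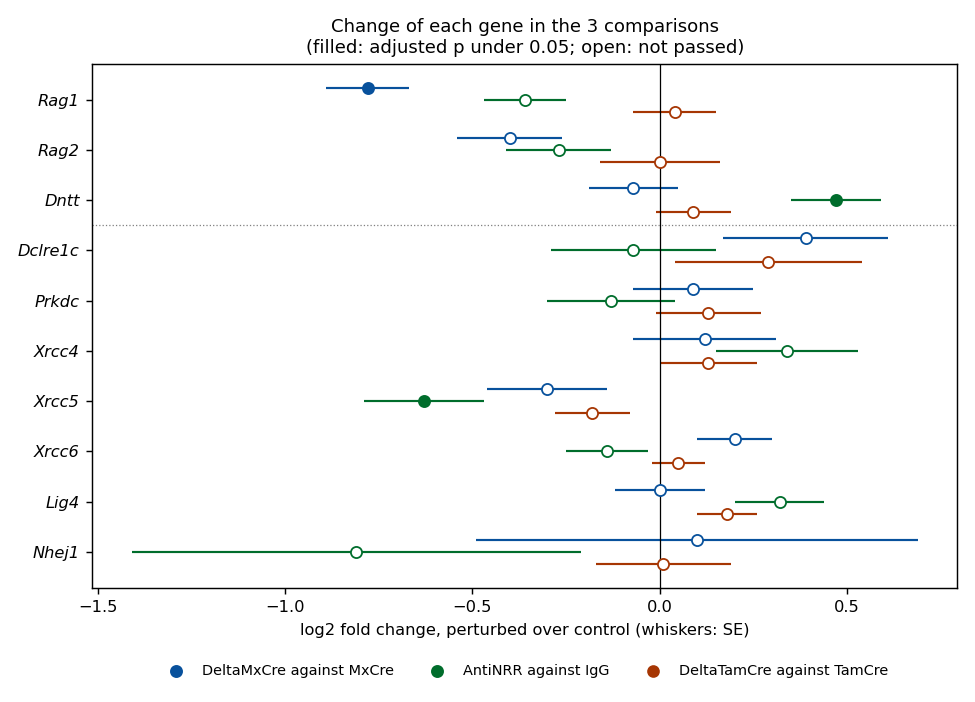
Log2 fold change (horizontal axis; whiskers are SE) of the 10 genes in the 3 comparisons, filled where the adjusted p was under 0.05. Rag1 fell by 0.78 in DeltaMxCre, and in AntiNRR Dntt rose by 0.47 and Xrcc5 fell by 0.63.

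The effects were then compared with each other. The Rag1 effect differed between DeltaMxCre and DeltaTamCre by −0.78 ± 0.17 (adjusted p = 0.0497), the only one of the 10 genes called there beside 0.166% of all genes. This call sat at the threshold: it was lost in 13 of 20 alternatives, with adjusted p from 0.0023 to 0.13 and differences from −0.87 to −0.67. Library kit, time after deletion, Cre and the extent of Zmiz1 loss differ between these models too and cannot be told apart. Zmiz1 itself differed in this contrast by −0.73 ± 0.15 (adjusted p = 0.0315). Between DeltaMxCre and AntiNRR none of the 10 genes differed by edgeR beside a background of 1.23%. Rag1, Dntt and Xrcc6 had an unadjusted p under 0.05 there (background 12.5%), and DESeq2 called 0 (background 2.54%). The Dntt difference was −0.55 ± 0.17 (adjusted p = 0.133), and without MxCre 3 it was −0.68 (adjusted p = 0.00618). The Rag1 difference was −0.42 ± 0.16 (adjusted p = 0.232). Between AntiNRR and DeltaTamCre none differed by edgeR beside 0.698%, with Rag1, Dntt and Xrcc5 at an unadjusted p under 0.05 (background 11.8%), and DESeq2 called 0 (background 2.08%). It was therefore not shown that the Dntt or Xrcc5 changes under the antibody differed from those after Zmiz1 deletion.

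The SMARTer controls themselves differed for the recombinase, in a contrast that shares its libraries with the first 2 comparisons. Rag1 was lower in MxCre than in IgG (−0.45 ± 0.11, adjusted p = 0.0464), a call lost in 6 of 13 alternatives (adjusted p 0.00526 to 0.231) beside 1.03% of all genes called. The alternatives without a call were the fit of the compared groups alone (0.0868) and those without IgG 1 (0.116), IgG 2 (0.14), IgG 3 (0.231), MxCre 1 (0.124) or MxCre 3 (0.125). Rag2 differed by −0.50 ± 0.14 (adjusted p = 0.0759), with a call under DESeq2 (0.0366), with no filter (0.0405) and with a replicate block (0.0469). Dclre1c differed by −0.61 ± 0.22 (adjusted p = 0.209), with a call under the replicate block alone (0.0306), and Dntt by 0.01 ± 0.12 (adjusted p = 0.993). The mean Rag1 level thus ran in the order IgG, AntiNRR, MxCre and DeltaMxCre. In that order AntiNRR (3498 to 4248 CPM) and MxCre (3180 to 4039 CPM) overlapped, whereas IgG lay above both and DeltaMxCre below both. Rag2 means had the same order, with overlap between each pair of neighbours. Dntt was highest in AntiNRR, and the other 3 groups overlapped (2540 to 3604 CPM). The summed level of the 20 cell cycle genes was 3719 to 8204 CPM in MxCre and 2346 to 2672 CPM in IgG. None of these 20 genes was called by edgeR, 18 had an unadjusted p under 0.05 (background 14%) and DESeq2 called 7 (background 3.3%). The part of this sum in the difference between the controls was not tested.

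**Figure D4:**
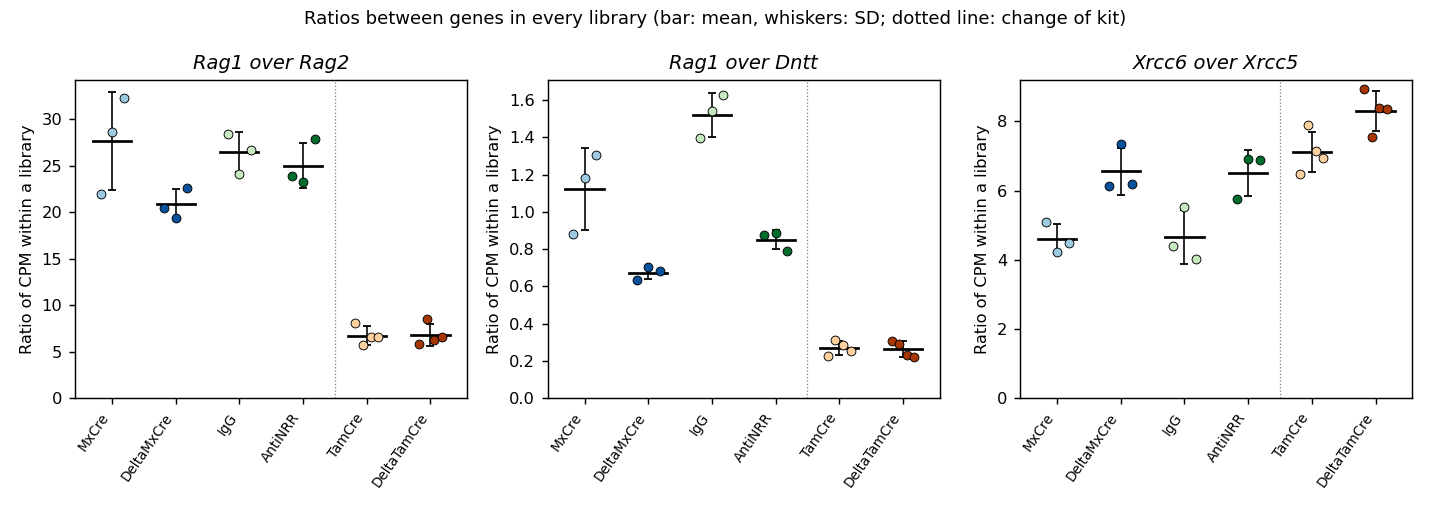
Ratio of CPM of 2 genes within each library (1 point per library, bar and whiskers the group mean and SD) for Rag1 over Rag2, Rag1 over Dntt and Xrcc6 over Xrcc5; the dotted line separates the kits. The ratio of Rag1 to Dntt is below its control in both SMARTer comparisons (0.635 to 0.704 against 0.882 to 1.31, and 0.793 to 0.886 against 1.40 to 1.63).

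Rag1 and Rag2 lie side by side on chromosome 2 and are transcribed towards each other, with 5723 bases between their ends. Rag1 counts were 19.4 to 32.3 times those of Rag2 in the SMARTer libraries and 5.67 to 8.55 times in the TruSeq libraries. Within the SMARTer kit this ratio was 21.96 to 32.3 in MxCre and 19.4 to 22.6 in DeltaMxCre, with overlap. The opposite strand of Rag2 holds part of B230118H07Rik (now Iftap), which overlaps Rag2 by 4320 bases. The sources used here do not give the strand setting of the counting, so reads of these genes cannot be told apart there, but B230118H07Rik lay at only 2.27 to 11.9 CPM. Bases just after the start of Rag1 also matched a transcript of B230118H07Rik in the GENCODE annotation, so this neighbour is not fully separate from Rag1. None of the other 5 neighbours tested (Traf6, Prr5l, Commd9, Ldlrad3 and B230118H07Rik) was called by edgeR or DESeq2 in any of the 3 comparisons, and none had an unadjusted p under 0.05 in DeltaMxCre. The authors' deposited table gives Ldlrad3, the farthest of them, a fold change of 0.514 with q = 0.00253 in AntiNRR. Traf6, the nearest of them upstream of Rag1, had a log2 fold change of 0.22 in DeltaMxCre (adjusted p = 0.521), and B230118H07Rik one of −1.02 ± 0.53 (adjusted p = 0.345). In DeltaMxCre, Rag1 was thus the only one of the 7 genes of this region called (background 2.94%), and Rag1 and Rag2 were the 2 at an unadjusted p under 0.05 (background 16.5%).

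**Figure D5:**
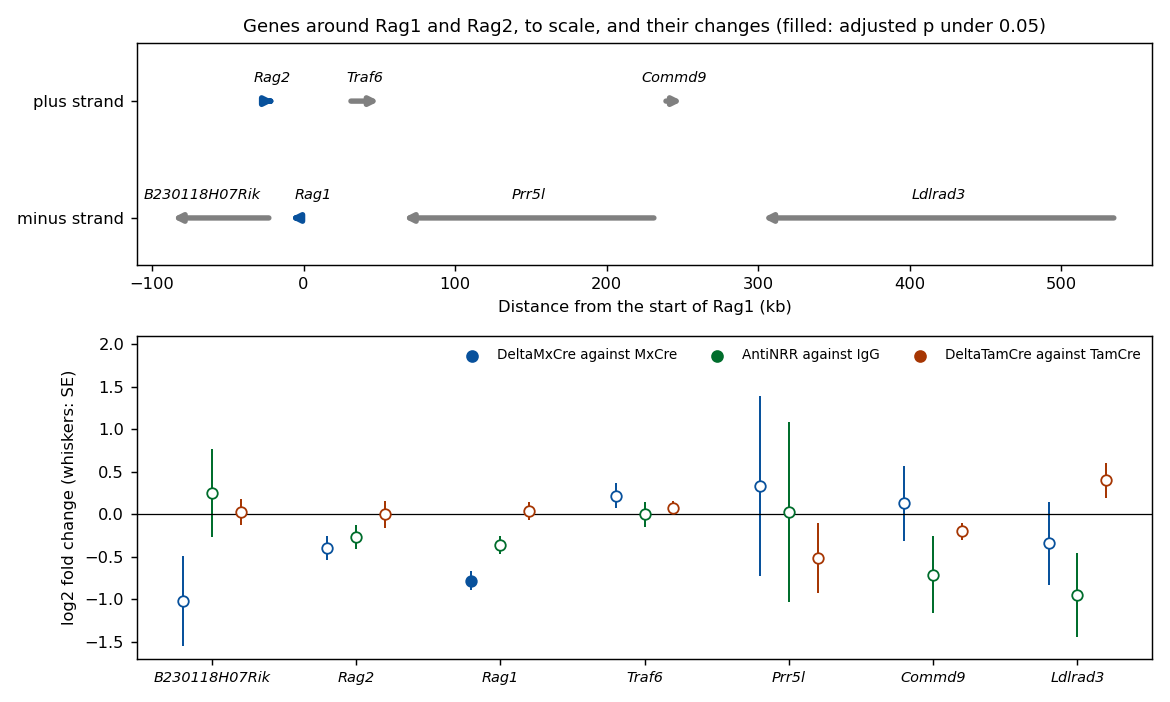
Upper panel, genes of the Rag region drawn to scale by distance from the start of Rag1 (kb) and strand, with arrows in the direction of transcription; lower panel, their log2 fold changes (whiskers are SE) in the 3 comparisons, filled where adjusted p was under 0.05. Rag1 in DeltaMxCre (−0.78) is the only filled point.

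Patterns across libraries were described by Pearson's r of log2 CPM over the 20 libraries, after the mean of each library's control group was subtracted, for 12819 genes. The libraries share kits, depths and control groups, so r is a description. Rag2 had r = 0.735 with Rag1 and stood 95th among the genes most like Rag1, while Rag1 stood 14th among those most like Rag2. The genes most like Rag1 were Fam131a (0.925), Rabl3 (0.876), Tifa (0.868), 6030429G01Rik (0.863) and Itgb4 (0.861). Dntt had r = 0.006 with Rag1 and −0.065 with Rag2. Among the other members it was nearest to Lig4 (0.665) and Xrcc4 (0.645), and over all genes to Plin3 (0.902), Sun2 (0.878), Rps6ka1 (0.870), Vav1 (0.867) and Sash3 (0.867). The genes most like Rag2 were Slc35d1 (0.812), Anks3 (0.808), Plcb3 (0.789), Gcnt2 (0.773) and Snhg1 (0.769).

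A wider list of 33 measured genes of double-strand break sensing and repair was set beside the members. In DeltaMxCre, 1 rose and 1 fell (background 2.94%), 3 had an unadjusted p under 0.05 (background 16.5%) and DESeq2 called 2 (background 5.1%). Aplf, a scaffold that binds Ku and XRCC4, rose from 55.6 ± 4.17 to 90.2 ± 9.78 CPM (0.70 ± 0.14, adjusted p = 0.00656). Parp1, a sensor of DNA breaks, fell from 479.0 ± 21.5 to 352.1 ± 62.0 CPM (−0.44 ± 0.12, adjusted p = 0.0367). Both also differed between the controls in the other direction (MxCre against IgG, Aplf −0.58, adjusted p = 0.0441, and Parp1 0.57, adjusted p = 0.0189), with IgG at 83.3 ± 5.34 CPM for Aplf and 322.6 ± 18.99 CPM for Parp1. The median of the list was −0.15 beside −0.03 over all genes. In AntiNRR none of the 33 was called by edgeR (background 4.06%) and 5 had an unadjusted p under 0.05 (background 16.3%). DESeq2 called Rif1 there (background 6.09%), and the median of the list was −0.11. In DeltaTamCre none was called by edgeR (background 0.0892%) or DESeq2 (background 4.05%). Aplf alone had an unadjusted p under 0.05 there (0.24 ± 0.10, adjusted p = 0.262, background 16%).

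Of 30 factors linked to control of Rag transcription or RAG2 protein, 3 fell and none rose in DeltaMxCre (background 2.94%). At an unadjusted p under 0.05 there were 7 (background 16.5%). DESeq2 called 4 (background 5.1%), the same 3 and Foxo1 (0.52 ± 0.17, adjusted p = 0.0876 by edgeR), whose protein activates Rag transcription. The 3 that fell were the HMG-box factor genes Lef1 (311.8 ± 33.9 to 171.1 ± 13.7 CPM, −0.87 ± 0.12, adjusted p = 0.000157) and Tcf7 (1373 ± 176 to 971.1 ± 49.5 CPM, −0.50 ± 0.11, adjusted p = 0.00842) and the zinc-finger factor gene Bcl11a (24.3 ± 7.68 to 5.96 ± 1.45 CPM, −2.03 ± 0.31, adjusted p = 0.000355). In AntiNRR 4 rose and 1 fell (background 4.06%), 14 had an unadjusted p under 0.05 (background 16.3%) and DESeq2 called 10 (background 6.09%). The 5 that DESeq2 alone called were Foxo1 (0.49 ± 0.17, adjusted p = 0.102 by edgeR), Foxo3, Id3, Ets1 and Cdkn1b, with edgeR log2 fold changes from 0.25 to 1.09. Gata3, a T lineage factor gene, rose from 143.8 ± 14.5 to 248.7 ± 4.19 CPM (0.79 ± 0.13, adjusted p = 0.00041). Satb1, a chromatin organiser, rose by 0.55 ± 0.10 (adjusted p = 0.0018), Ikzf1 (Ikaros) by 0.43 ± 0.12 (adjusted p = 0.027) and Foxp1 by 0.38 ± 0.11 (adjusted p = 0.035). Lef1 fell there too, by 0.88 ± 0.12 (adjusted p = 0.000116). The E protein genes Tcf3 (−0.13 ± 0.11 in DeltaMxCre and 0.11 ± 0.11 in AntiNRR) and Tcf12 (−0.06 ± 0.10 and 0.19 ± 0.10) did not pass. In DeltaTamCre none of the 30 was called by edgeR (background 0.0892%) and 4 had an unadjusted p under 0.05 (background 16%). DESeq2 called Lef1 and Tcf7 there (background 4.05%), both lower. By edgeR, Lef1 differed by −0.62 ± 0.16 (adjusted p = 0.142) and Tcf7 by −0.32 ± 0.08 (adjusted p = 0.125) in DeltaTamCre.

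Markers of other stages and cell types were summed in the same groups. The backgrounds were 2.94% called by edgeR, 16.5% at an unadjusted p under 0.05 and 5.1% called by DESeq2 in DeltaMxCre. In AntiNRR they were 4.06%, 16.3% and 6.09% in that order. The summed level of 10 genes of later stages, from DN4 to double-positive cells, was 1272 to 1684 CPM in MxCre and 1800 to 2287 CPM in DeltaMxCre, with 2 of them called (Arpp21 and Cd28, both higher). It was 2242 to 2589 CPM in IgG and 2650 to 2953 CPM in AntiNRR, with none called by edgeR, 2 at an unadjusted p under 0.05 and 2 by DESeq2. That of 10 early progenitor genes was 112.7 to 149.5 CPM in MxCre and 108.7 to 144.9 CPM in DeltaMxCre, where Bcl11a and Cd44 fell. It was 142.2 to 163.9 CPM in IgG and 204.5 to 244.4 CPM in AntiNRR, where Kit rose. Kit made up most of this sum, with means of 93.8 CPM in MxCre, 111.8 in DeltaMxCre, 102.7 in IgG and 184 in AntiNRR. The median log2 fold change of the 7 early genes tested was −1.59 in DeltaMxCre (−0.03 over all genes) and −0.04 in AntiNRR (−0.02). For 4 of these 7 every DeltaMxCre library lay below every MxCre library, where 20.9% of all genes did not overlap. They were Cd44, Bcl11a, Mef2c and Cd34, the last at means of 0.747 and 0.183 CPM in MxCre and DeltaMxCre (−1.96 ± 1.98). Of the 10 early genes, 5 had a mean under 1 CPM in MxCre and 6 in DeltaMxCre, so this median rests largely on low counts. Kit had a log2 fold change of 0.26 ± 0.14 in DeltaMxCre (adjusted p = 0.391 by edgeR). Of the 20 cell cycle genes none was called by edgeR in DeltaMxCre or AntiNRR, 2 in each had an unadjusted p under 0.05, and DESeq2 called 0 and 1. The sum of 3 gamma-delta T cell genes was 54.8 to 76.6 CPM in IgG and 108.4 to 122.7 CPM in AntiNRR, where edgeR called neither of the 2 tested and DESeq2 called Sox13, and it overlapped between MxCre and DeltaMxCre. The sum of 5 NK and innate genes was 7.62 to 15 CPM in MxCre and 18.8 to 20.8 CPM in DeltaMxCre. Nkg7 made up nearly all of it, with means of 11.6 CPM in MxCre and 19.2 CPM in DeltaMxCre. The other 4 genes had means under 1 CPM in both groups, with Ncr1 at 0 in both, Klrb1c at 0 in MxCre and Klrk1 at 0 in DeltaMxCre. Neither of the 2 tested was called by edgeR or DESeq2, and Nkg7 had an unadjusted p under 0.05. The part of these sums in the changes of Rag1, Dntt and Xrcc5 was not tested.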

How the data were processed

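RNA of 20 DN3 libraries in 6 groups was sequenced. The submitters' processing notes name FastQC 0.10.0, TopHat2 2.0.9, Bowtie2 2.1.0.0, Cufflinks, Cuffdiff 2.1.1 and the mm10 build. The deposited count table holds expected counts per gene (98.38% of values were whole), per the file headers. The authors' deposited comparison table holds group values that fit FPKM, judged from their ratio to the counts, with a ratio of perturbed to control group, a p-value and a q-value per gene, per the file headers.

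Rounded counts went into edgeR 4.0.16 (R 4.3.3), with low genes removed by filterByExpr, TMM normalisation and the robust quasi-likelihood F test. A call was a Benjamini-Hochberg adjusted p under 0.05 over all genes tested. The 12 SMARTer libraries shared 1 fit and the 8 TruSeq libraries another, and differences between kits used a fit of all 20. A prior count of 2 was used on the log scale. The fits were tested on simulated counts. Of 190 pairs of libraries none held identical values. The alternatives were DESeq2 1.42.0, other size factors, filters and sample sets, a replicate block, and leaving out each library.

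The 10 genes, the gene lists and the tests were chosen with earlier results of these data known. The text names all 10 genes, the break repair genes and Rag factors that passed in a perturbed group, the neighbours of Rag1 and the 5 genes most like Rag1, Rag2 and Dntt. Called genes of the marker lists, and of all lists between the controls, are named only in part. The list of other break repair genes had 34 names, of which 33 were in the table. Nhej1 had the lowest counts of the 10 genes and the largest SE in the SMARTer comparisons.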

Additional observations from a re-analysis of the deposited data

Results flagged for a closer look

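The Rag1 effect of Zmiz1 deletion differed between DeltaMxCre and DeltaTamCre by −0.78 ± 0.17 on the log2 scale (edgeR adjusted p = 0.0497). It was drawn out because the same kind of contrast gave different effects in 2 models by a test of the difference itself: Rag1 was lower in 3 of 3 DeltaMxCre libraries than in every MxCre library and overlapped between DeltaTamCre and TamCre. The adjusted p of Rag1 ran from 0.0023 to 0.13 over 20 alternatives. Zmiz1 itself also fell further in DeltaMxCre than in DeltaTamCre (−0.73 ± 0.15, edgeR adjusted p = 0.0315). In the 20 sets of 4 TruSeq libraries examined (10 genes in 2 groups), no library stood apart from its group.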

How the results depend on the processing

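Of 1120 log2 fold changes of the 10 genes under alternatives, 1082 kept their side of the threshold, 27 lost a call and 11 gained one. No called value changed sign, but some uncalled values did, such as Dntt in DeltaMxCre (−0.21 to 0.02). With DESeq2 the number of genes called was 691 (399 as reported) in DeltaMxCre, 825 (551) in AntiNRR, 545 (12) in DeltaTamCre and 448 (140) in MxCre against IgG. For the differences between effects that number was 344 (167) between DeltaMxCre and AntiNRR, 79 (23) between DeltaMxCre and DeltaTamCre and 289 (97) between AntiNRR and DeltaTamCre. With only the compared groups it was 183 in DeltaMxCre, with all libraries in 1 fit 2 in DeltaTamCre, and with no filter 234 in MxCre against IgG. Smaller shifts in these settings are not listed. Of the 10 genes, MxCre against IgG called 2 with DESeq2, 2 with no filter and 0 with only the compared groups (1 as reported), and DeltaMxCre against DeltaTamCre called 0 (1 as reported) with RLE size factors or a filter of 50 counts. AntiNRR against IgG called 3 of the 10 (2 as reported) with DESeq2, no filter, only the compared groups or a replicate block.

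No pairing by replicate number was seen, as correlations of same-numbered libraries in their deviations from group means ran from −0.357 to 0.032. With 3 or 4 libraries per group, this cannot show that the libraries were unpaired. With a replicate block the genes called were 0 in DeltaTamCre, 230 in MxCre against IgG, 9 between DeltaMxCre and DeltaTamCre and 35 between AntiNRR and DeltaTamCre, and of the 10 genes 3 in MxCre against IgG and 0 between DeltaMxCre and DeltaTamCre.

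Leaving out 1 library in turn, the genes called ran from 138 to 427 in DeltaMxCre, 257 to 470 in AntiNRR (551 as reported), 0 to 8 in DeltaTamCre, 4 to 339 in MxCre against IgG, 99 to 290 between DeltaMxCre and AntiNRR, 11 to 52 between DeltaMxCre and DeltaTamCre and 47 to 131 between AntiNRR and DeltaTamCre. Of the 10 genes, 1 to 2 were called in DeltaMxCre, 0 to 2 in AntiNRR, 0 to 1 in MxCre against IgG, 0 to 1 between DeltaMxCre and AntiNRR and 0 to 1 between DeltaMxCre and DeltaTamCre. The cause of these shifts was not tested.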
